A study of Bos taurus with 8 samples.

Results

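The steroid metabolism and steroid response genes described here are HSD11B1, HSD11B2, HSD17B2, SRD5A1, STS, GREB1, PMEPA1 and FKBP5, taken by symbol from a deposited count table of 33132 genes. All 8 were found there and tested. They were followed in rumen tissue of 4 newborn (neonatal) calves and 4 adult steers, all male angus crosses, with 1 library per animal. Steers are castrated males, so stage and castration change together and cannot be told apart here. The labels give no age in days, diet, batch, hormone level or part of the rumen wall, and the series asks which genes accompany growth of the rumen after birth. Totals were 42322022 to 54449684 counts per library. Levels are given in CPM, counts relative to library sizes that were scaled by the trimmed mean of M values (TMM). A gene was called at a Benjamini-Hochberg adjusted p under 0.05 in edgeR's quasi-likelihood test over 16326 genes, and every log2 change is steer minus calf.

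Steroid hormones reach a tissue through blood and are then activated or inactivated inside its cells, so the enzymes a tissue makes decide how much hormone its receptors meet. HSD11B1 regenerates active cortisol and HSD11B2 turns cortisol into inactive cortisone. HSD17B2 oxidises estradiol and testosterone to weaker forms, SRD5A1 reduces testosterone to the more potent dihydrotestosterone, and STS frees steroids from their sulfate store. The others are known mainly as readouts of hormone signalling, namely GREB1 (induced by estrogen in other tissues), FKBP5 (a receptor co-chaperone induced by glucocorticoids and androgens) and PMEPA1 (a membrane protein induced by androgens and by TGF-beta that dampens SMAD signalling).

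The libraries held several tissue layers, and several marker sums differed between calves and steers, while those of basal keratinocytes overlapped. The summed level of 10 basal keratinocyte markers was 5687 to 7268 CPM in calves and 6415 to 9142 CPM in steers. Markers of differentiated squamous cells summed to 38948 to 93431 CPM in calves and 911 to 3239 CPM in steers, with DSG1 at 0 in every library because its counted span lies wholly inside another gene. Smooth muscle markers summed to 6376 to 18591 CPM in calves and to 56450, 109320, 51986 and 10944 CPM in steers 1 to 4, so that steer 4 lay among the calves. Fibroblast markers summed to 1724 to 4962 CPM in calves and 636 to 1463 CPM in steers, and leukocyte markers to 17.0 to 29.4 and 34.6 to 86.7 CPM. In bulk tissue, fewer cells of a type and less RNA per cell cannot be told apart.

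Of the 8 genes, 4 rose in steers and none fell. The other 4 had unadjusted p-values of 0.371 to 0.563 in edgeR, and DESeq2 and limma-voom also called 4 higher and 0 lower. The genes that rose were GREB1, HSD17B2, HSD11B2 and PMEPA1, and in these same 4 the 2 groups did not overlap. Over all genes tested, 7.7% were called higher, 9.16% lower and 16.9% in either direction, and 10.5% were higher in every steer than in any calf. The median log2 change was 0.90 over the 8 genes and 0.04 over all genes tested. The genes were chosen with earlier results of these data known, so their share of calls is a description only.

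**Figure D1:**
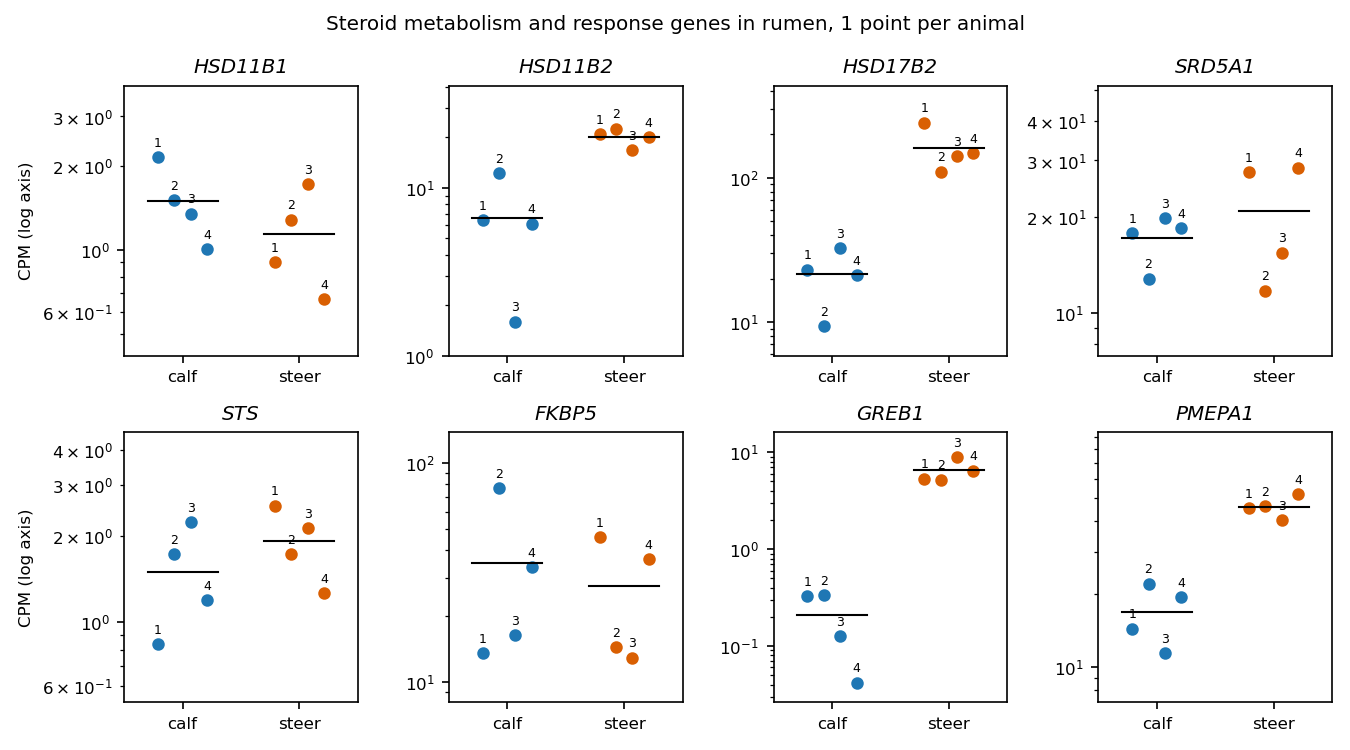
Level of each of the 8 genes in CPM (log axis, scaled separately for each gene) in calves (blue) and steers (orange). Each point is 1 animal with its replicate number, and the bar is the arithmetic mean of 4. Steers lie above all calves for HSD11B2, HSD17B2, GREB1 and PMEPA1, and the groups overlap for the other 4 genes.

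The enzymes of cortisol were both present, and the inactivating one was higher in steers. HSD11B2 (chromosome 18, 35036356 to 35046071, with positions as deposited and the build not given in the sources used here) was at 6.41, 12.2, 1.599 and 6.11 CPM in calves 1 to 4. In steers 1 to 4 it was at 20.9, 22.4, 16.8 and 19.95 CPM. The steers were close to each other, with a highest level 1.34 times the lowest, whereas the calves spread 7.65-fold, with calf 3 lowest and calf 2 highest. The mean rose from 6.59 ± 4.36 to 20.01 ± 2.40 CPM (SD, n = 4 per group), 3.04-fold. The log2 change was 1.602 ± 0.480 (SE) with a 95% interval of 0.53 to 2.67 and an adjusted p of 0.0467 in edgeR.

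The HSD11B2 call lay close to the threshold and was lost in 9 of 20 alternative analyses, always with the same direction. Leaving out calf 1, calf 4 or any 1 of the 4 steers gave edgeR adjusted p-values of 0.114, 0.109, 0.0865, 0.0862, 0.076 and 0.0598, in that order, at log2 changes of 1.55 to 1.68. With the smooth muscle marker mean as a covariate the change was 1.28 and the adjusted p 0.119.

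HSD11B1 (chromosome 16, 73564338 to 73634450) was low, with 2.14, 1.51, 1.35 and 1.00 CPM in calves 1 to 4 and 0.90, 1.28, 1.71 and 0.666 CPM in steers 1 to 4. The groups overlapped, since steer 3 exceeded 3 of the 4 calves. The mean was 1.4998 ± 0.4772 CPM in calves and 1.14 ± 0.46 CPM in steers, a log2 change of -0.39 ± 0.42 that was not called (95% interval -1.33 to 0.55, adjusted p = 0.571). The interval includes a fall as well as a modest rise, so no difference was resolved, at 36 to 92 counts per library and coefficients of variation of 31.8% among calves and 40.2% among steers.

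Within each library the ratio of the 2 enzymes is free of scaling. There were 2.99, 8.12, 1.19 and 6.08 HSD11B2 counts per HSD11B1 count in calves 1 to 4, and 23.2, 17.5, 9.78 and 29.9 in steers 1 to 4. The lowest steer was above the highest calf, and the mean went from 4.60 ± 3.10 to 20.1 ± 8.6 (SD, n = 4). The counted spans of the genes differ in length, so the ratio shows how their balance differed between animals and not which messenger was the more abundant. The ratio joins 2 of the genes described above and is given without a test.

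**Figure D2:**
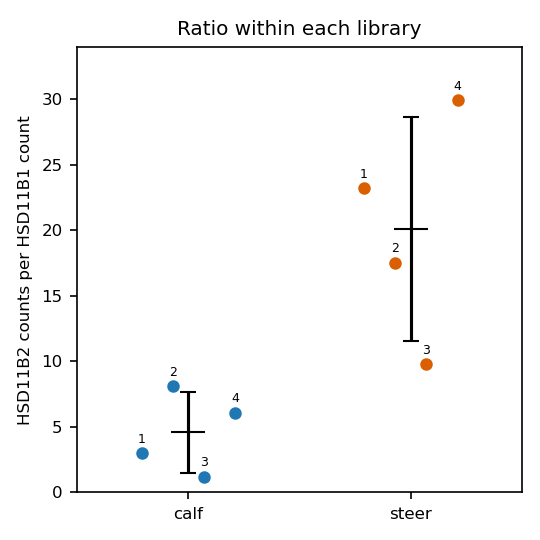
Counts of HSD11B2 per count of HSD11B1 within each library of calves (blue) and steers (orange), on a linear axis. Points are animals with their replicate number, and the black bar and whiskers are mean and SD of 4. All 4 steers, from 9.78 to 29.9, lie above the calves, which reach 8.12.

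The list of corticosteroid enzymes was small. Besides HSD11B1, HSD11B2 and SRD5A1, the list held 6 genes of the table, 3 of which were tested. None of these was called in edgeR, DESeq2 or limma-voom, and 1 had an unadjusted p under 0.05 in each. That gene was HSD11B1L, a relative of HSD11B1, at 5.79 ± 1.98 CPM in calves and 10.04 ± 1.81 CPM in steers (0.79 ± 0.31, edgeR adjusted p = 0.105). SLC37A4, the transporter that feeds the cofactor supply of HSD11B1, was at 11.9 ± 1.0 and 13.5 ± 2.2 CPM (0.18 ± 0.20, adjusted p = 0.583). AKR1D1, CYP3A5 and SERPINA6, the last a carrier of cortisol in blood, were too low for testing.

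HSD17B2, which inactivates sex steroids, rose in steers, while SRD5A1 was not called. HSD17B2 (chromosome 18, 8586156 to 8679914) was at 23.0, 9.32, 32.3 and 21.1 CPM in calves 1 to 4 and at 238.9, 109.9, 140.01 and 146.8 CPM in steers 1 to 4. Every steer was more than 3 times the highest calf, with steer 1 highest and calf 2 lowest. The mean rose 7.41-fold from 21.4 ± 9.5 to 158.9 ± 55.7 CPM (SD, n = 4), a log2 change of 2.89 ± 0.39 (95% interval 2.01 to 3.77, edgeR adjusted p = 0.00152). It ranked 235 by size among the 1257 genes called higher. The call was kept in all 20 alternatives, at log2 changes of 2.64 to 3.39, the highest with the smooth muscle covariate. Of its counted span 2.35% is shared with SDR42E1 and an uncharacterised locus.

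SRD5A1 (chromosome 20, 66561435 to 66598483) was not called. Calves 1 to 4 had 17.8, 12.8, 19.8 and 18.4 CPM and steers 1 to 4 had 27.5, 11.7, 15.5 and 28.5 CPM. The steers fell on both sides of the calves, steers 1 and 4 above all of them and steer 2 below. Means were 17.2 ± 3.0 and 20.8 ± 8.5 CPM, with a log2 change of 0.28 ± 0.31 (95% interval -0.41 to 0.96, edgeR adjusted p = 0.59). With the smooth muscle marker mean as a covariate the SRD5A1 change was 0.79 (edgeR adjusted p = 0.0791). Without calf 2 and steer 4 together it was -0.032.

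Around these genes, 5 of 19 other tested sex steroid enzymes were called, 3 higher and 2 lower (26.3% against 16.9% over all genes, median log2 change 0.20 against 0.04). HSD17B13, a lipid droplet protein of the same enzyme class, rose from 215.8 ± 72.5 to 1160.2 ± 723.3 CPM (2.43 ± 0.47, edgeR adjusted p = 0.00776). HSD17B11, another lipid droplet member, rose from 7.93 ± 3.08 to 17.7 ± 4.6 CPM (1.16 ± 0.31). DHRS11, which can also act on the steroid site that HSD17B2 oxidises, rose from 50.1 ± 10.6 to 86.1 ± 11.001 CPM (0.78 ± 0.20). HSD17B14, an oxidising member of the family, fell from 14.3 ± 9.3 to 2.19 ± 1.06 CPM (-2.70 ± 0.52, edgeR adjusted p = 0.00766), and DHRS9, which oxidises retinol and steroids, fell from 2.19 ± 1.47 to 0.225 ± 0.200 CPM (-3.22 ± 0.83), having passed the filter on low counts through the calves. SRD5A2 and CYP19A1, the aromatase that makes estrogen, had too few counts for testing.

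The calls of HSD17B13 and HSD17B14 were kept in all 20 alternatives. That of HSD17B11 was lost without calf 1, calf 2, calf 4, steer 2 or steer 3 (log2 changes of 1.02 to 1.18). DHRS11 was lost without calf 1, calf 2, calf 3, steer 1 or steer 3 (0.68 to 0.81), and DHRS9 without calf 1, calf 3, steer 1 or steer 2 (-3.24 to -2.75).

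STS, steroid sulfatase, lies on chromosome X from 135461328 to 135628739 and was near the lower end of the measurable levels, with 36 to 114 counts per library. It had 0.839, 1.72, 2.23 and 1.19 CPM in calves 1 to 4 and 2.55, 1.73, 2.12 and 1.26 CPM in steers 1 to 4. The groups overlapped almost fully. Means were 1.496 ± 0.610 and 1.92 ± 0.55 CPM, a log2 change of 0.35 ± 0.41 that was not called (95% interval -0.55 to 1.26, edgeR adjusted p = 0.603).

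STS was placed in a list of genes for steroid sulfate and conjugate handling, and several others of that list were called. Whether they act on steroids in this tissue was not tested. Of 14 other tested genes of that list, 4 rose and 1 fell (35.7%, median log2 change 0.45). PAPSS2, which makes the sulfate donor that sulfotransferases spend, rose from 35.8 ± 24.9 to 339.9 ± 285.7 CPM (3.25 ± 0.73, edgeR adjusted p = 0.0148). The sulfotransferase SULT1B1 rose from 3.58 ± 1.53 to 25.2 ± 24.5 CPM (2.82 ± 0.64), and the glucuronosyltransferase UGT1A6 rose by 3.64 ± 0.60. The steers spread widely in these 3 genes, with an SD above the calf mean in each and steer 4 highest. Without steer 4 the log2 changes were 2.49 for PAPSS2, 1.89 for SULT1B1 and 2.86 for UGT1A6, all still called. UGT1A1 also rose, by 2.19 ± 0.50, but 95.2% of its counted span lies in UGT1A6 and another locus. Of the counted span of UGT1A6, 19.7% is shared with UGT1A1 and other loci, so these 2 rises are not fully separate. ABCG2, an exporter of sulfated steroids among many compounds, fell from 7.91 ± 2.64 to 2.23 ± 0.64 CPM (-1.82 ± 0.34). The estrogen sulfotransferase SULT1E1 and SULT2A1 were too low for testing.

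Of the steps that make steroids from cholesterol, the earliest were measurable and some later ones were not. STAR, which brings cholesterol into mitochondria, was at 2.701 to 7.95 CPM over the 8 libraries. Of its counted span, 32.2% is shared with another locus. CYP11A1, the side-chain cleavage enzyme, was at 0.25 to 7.03 CPM. Neither STAR nor CYP11A1 was called (edgeR adjusted p = 0.836 and 0.217). CYP17A1 and CYP11B1 had too few counts for testing, CYP17A1 reaching 0.168 CPM and CYP11B1 0.0745 CPM. Of 12 tested genes of the list, 2 rose and 1 fell (25%, median log2 change -0.21). FDX1, the electron donor of mitochondrial P450 enzymes in general, rose from 24.4 ± 3.8 to 48.8 ± 9.8 CPM (1.00 ± 0.21), and POR, the donor of the microsomal ones, fell from 95.5 ± 7.0 to 35.5 ± 7.0 CPM (-1.43 ± 0.19). CYP21, a hydroxylase of cortisol synthesis, rose from 0.569 ± 0.407 to 2.57 ± 0.74 CPM (2.17 ± 0.55). Its call was lost without calf 1, calf 3, steer 1 or steer 3 (1.99 to 2.18), and the change was 2.76 without calf 4. CYP21 passed the filter on low counts through the steers, so its test could hardly have come out lower in steers.

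**Figure D3:**
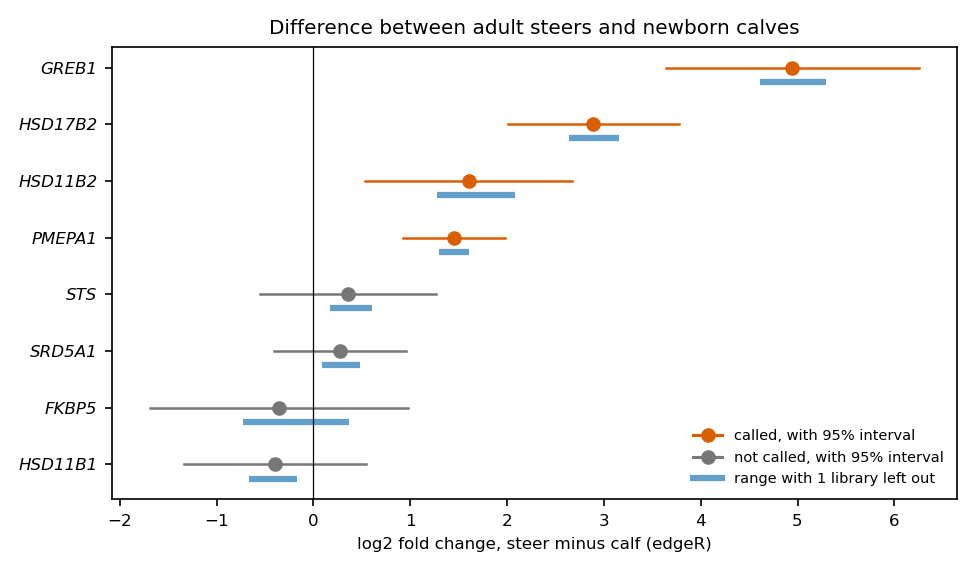
Log2 fold change of each of the 8 genes in edgeR, steer minus calf, with its 95% interval (orange where called, grey where not). The blue bars give the range of the estimate when 1 library is left out at a time. GREB1, HSD17B2, HSD11B2 and PMEPA1 lie above 0 with their whole interval, and the range for FKBP5 crosses 0.

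Among the response genes, GREB1 differed most. GREB1 (chromosome 11, 86231436 to 86366162) had 14, 20, 6 and 2 counts in calves 1 to 4 (0.326, 0.335, 0.126 and 0.0418 CPM). Steers 1 to 4 had 214, 188, 478 and 370 counts (5.35, 5.23, 8.90 and 6.49 CPM). It was near the limit of detection in calves, with calf 4 below the level that 3 counts give in that library (0.0627 CPM), and low but clearly counted in every steer. The mean rose 31.3-fold from 0.207 ± 0.146 to 6.49 ± 1.70 CPM (SD, n = 4), a log2 change of 4.95 ± 0.58 (95% interval 3.64 to 6.25, edgeR adjusted p = 0.000717). The change ranked 63 among the 1257 genes called higher and was 4.62 to 5.30 over the 20 alternatives, called in all of them. GREB1 passed the filter on low counts through the steers, so its test could hardly have come out lower in steers.

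The receptors that act on GREB1 elsewhere were scarce. ESR1, the main estrogen receptor of most tissues, had 7, 6, 4 and 12 counts in calves 1 to 4 and 4, 10, 4 and 3 counts in steers 1 to 4, below the filter. Its summed counts were 29 in calves and 21 in steers. ESR2, the second estrogen receptor, fell from 1.42 ± 0.30 to 0.136 ± 0.087 CPM (-3.35 ± 0.57, edgeR adjusted p = 0.0043), with 59, 109, 53 and 65 counts in the calves and 6, 4, 2 and 14 in the steers. ESR2 passed the filter through the calves, so its test could hardly have come out higher in steers. PGR, the progesterone receptor and itself an estrogen-induced gene, had 3 counts in calf 4 and 0 in the other 7 libraries. GPER1 could not be measured, since its counted span lies wholly inside another gene. The part of any of these receptors in the GREB1 change was not tested.

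The other estrogen response genes had no common direction. Of 29 tested, 3 rose and 5 fell (27.6%, median log2 change -0.29). BCAS1 rose from 1.202 ± 0.449 to 8.90 ± 3.72 CPM (2.89 ± 0.42) and SUSD3 from 0.34 ± 0.11 to 2.10 ± 0.41 CPM (2.61 ± 0.41). CA12 rose by 3.45 ± 0.66, with 90.9% of its counted span shared with other genes, and by 2.62 without steer 4. SUSD3 and CA12 passed the filter on low counts through the steers, so their tests could hardly have come out lower in steers. The keratin KRT13, a squamous differentiation marker as well, fell by 5.83 ± 0.63. It is among the differentiated squamous markers whose sums were lower in steers, and their part in its change was not tested. The receptor tyrosine kinase RET, which also marks enteric neurons, fell from 6.60 ± 2.71 to 1.15 ± 0.22 CPM (-2.52 ± 0.38). Summed enteric neuron and glia markers, RET among them, were 49.7 to 94.2 CPM in calves and 16.8 to 27.1 CPM in steers, and their part in the RET change was not tested. AGR2, a secretory cell protein, fell from 1.78 ± 2.16 CPM to counts in steer 1 only (-5.19 ± 1.35), a call lost without calf 3, steer 2 or steer 3 (-4.82 to -3.84) and with the smooth muscle covariate (-2.81). AGR2 passed the filter through the calves, which all but fixed its direction, and without steer 1 the remaining steers were all at 0, so that the fitted change (-9.44, still called) depends on the prior count. TFF1, a classical estrogen target, had 0 counts in every library.

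PMEPA1 (chromosome 13, 58487491 to 58544234) was at 14.4, 22.1, 11.4 and 19.5 CPM in calves 1 to 4 and at 45.3, 46.3, 40.5 and 52.0 CPM in steers 1 to 4. The steers stood close together and clear of the calves, the lowest steer at 40.5 CPM and the highest calf at 22.1 CPM. The mean rose 2.73-fold from 16.8 ± 4.8 to 46.03 ± 4.69 CPM (SD, n = 4), a log2 change of 1.45 ± 0.23 (95% interval 0.93 to 1.97, edgeR adjusted p = 0.00341). All 20 alternatives kept the call, at 1.30 to 1.61.

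PMEPA1 belongs to both the androgen and the TGF-beta response list, and both held calls in either direction. Of 23 other tested androgen response genes, 3 rose and 1 fell (17.4%, median log2 change -0.01). The scaffold protein IQGAP2 rose by 1.97 ± 0.32 and the stress-responsive NDRG1 by 1.32 ± 0.32, from 186.0 ± 28.1 to 465.9 ± 199.6 CPM. The sorbitol dehydrogenase SORD rose by 1.35 ± 0.41 and the transporter SLC45A3 fell by 1.57 ± 0.39. The call of NDRG1 was lost without calf 1 or calf 4 (1.31 and 1.25). SORD was lost without any 1 library other than calf 3 or steer 2 (1.14 to 1.43), and SLC45A3 without calf 2, steer 1 or steer 2 (-1.48 to -1.25).

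Of 26 other tested TGF-beta response genes, 3 rose and 4 fell (26.9%, median log2 change 0.13). BAMBI, a decoy receptor that like PMEPA1 dampens the pathway, rose from 1.26 ± 0.45 to 11.3 ± 7.1 CPM (3.17 ± 0.48, edgeR adjusted p = 0.00238). The matrix binder LTBP2 rose by 1.47 ± 0.27. The ligand TGFB3 fell from 7.43 ± 0.86 to 2.18 ± 0.33 CPM (-1.77 ± 0.26), the collagen chain COL1A1 changed by -2.56 ± 0.38 and the matricellular protein CTGF fell by 1.61 ± 0.41. SMAD6, an inhibitory SMAD, fell by 0.95 ± 0.22. CTGF lost its call without calf 1, calf 2, steer 1 or steer 3 (-1.57 to -1.38). COL1A1 is also one of the fibroblast markers, whose sums were lower in steers, and their part in its change was not tested.

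**Figure D4:**
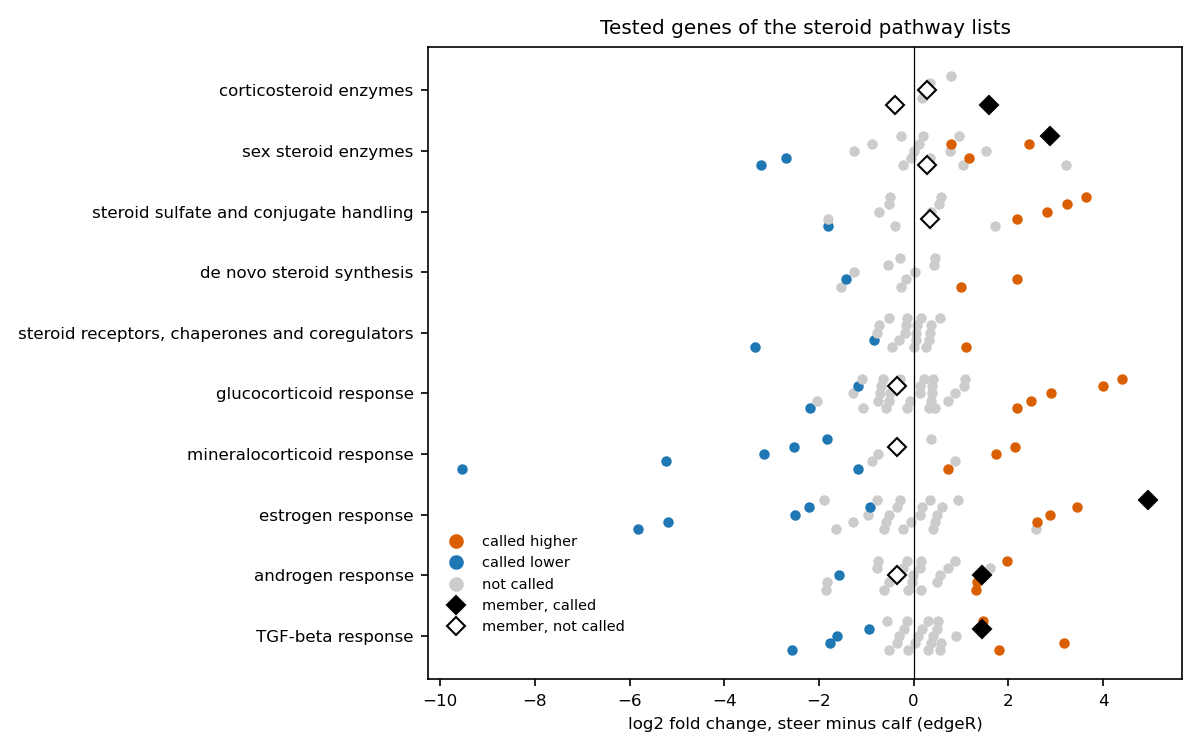
Log2 fold change, steer minus calf, of the tested genes of each pathway list (orange called higher, blue called lower, grey not called). Diamonds are the 8 genes described here, filled where called, and a gene on several lists is drawn on each; vertical offsets within a list carry no value. Calls lie on both sides of 0 in 9 of the 10 lists, and the corticosteroid list holds no call besides HSD11B2.

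FKBP5 varied more between animals of a group than between calves and steers. FKBP5 (chromosome 23, 9555619 to 9677847) was at 13.6, 76.7, 16.3 and 33.5 CPM in calves 1 to 4 and at 45.8, 14.4, 12.9 and 36.4 CPM in steers 1 to 4. Calf 2 was highest of all 8 and steer 3 lowest, and steers 1 and 4 lay well above steers 2 and 3. Means were 35.0 ± 29.2 and 27.4 ± 16.3 CPM, with a log2 change of -0.36 ± 0.60 that was not called (95% interval -1.69 to 0.97, edgeR adjusted p = 0.732). Without calf 2 the estimate was 0.37 (adjusted p = 0.669), so its sign rested on that library.

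The receptors upstream of FKBP5 were not called. NR3C1, the glucocorticoid receptor, was at 4.91, 9.47, 7.77 and 5.23 CPM in calves 1 to 4 and at 4.92, 7.71, 11.3 and 8.89 CPM in steers 1 to 4 (0.26 ± 0.33, edgeR adjusted p = 0.635). NR3C2, the mineralocorticoid receptor that HSD11B2 shields from cortisol in kidney and colon, was at 8.001 ± 3.721 and 4.68 ± 0.87 CPM (-0.77 ± 0.34, adjusted p = 0.152). Of 21 tested receptors, chaperones and coregulators, 1 rose and 2 fell (14.3%, median log2 change 0.02). ESRRA, an orphan receptor of mitochondrial genes, rose from 89.4 ± 12.7 to 193.3 ± 49.5 CPM (1.11 ± 0.23).

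Of 34 other tested glucocorticoid response genes, 5 rose and 2 fell (20.6%, median log2 change 0.13), so the list did not share 1 direction. METTL7A rose from 27.3 ± 9.5 to 438.6 ± 94.6 CPM (4.01 ± 0.35, edgeR adjusted p = 0.000186), and MAOA, a monoamine oxidase, from 18.2 ± 3.3 to 135.7 ± 23.2 CPM (2.89 ± 0.22). The metallothionein MT2A, whose near-identical relatives can share its reads, rose by 4.40 ± 0.43. TSC22D3, the glucocorticoid-induced leucine zipper protein, fell from 69.8 ± 19.9 to 30.7 ± 5.1 CPM (-1.18 ± 0.24, edgeR adjusted p = 0.00979), and the transcription factor TFCP2L1 by 2.19 ± 0.39. The calls of these 5 genes were kept in all 20 alternatives.

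The high FKBP5 of calf 2 came with high levels of other genes of that list, a comparison made after the values were seen. Calf 2 was the highest calf for 16 of 31 other glucocorticoid response genes averaging 5 CPM or more (51.6%), against 33.5% of 10817 genes at that level. It had at least 2 times the level of any other calf for 4 of the 31 (12.9%), against 1.58% of all such genes. These were the cell cycle inhibitor CDKN1C, the zinc finger protein ZBTB16, the secreted protein CRISPLD2 and the pyruvate dehydrogenase kinase PDK4. CDKN1C was at 114.9 CPM in calf 2 and 15.8 to 29.3 CPM in the others. ZBTB16 was at 45.1 CPM in calf 2 against 7.34 to 14.7 CPM. CRISPLD2 was at 32.4 against 5.66 to 10.7 CPM, and PDK4 at 92.5 against 17.5 to 34.7 CPM.

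Other genes of the list did not follow, since SGK1, DDIT4, GLUL and METTL7A, for example, lay below the mean of the other calves in calf 2. Calf 2 was also the highest calf for 16 of 21 TGF-beta response genes besides PMEPA1 (76.2%), with at least 2 times any other calf in 2 of the 21 (9.52%). It had the highest fibroblast marker sum (4962 CPM against 1724 to 2833 CPM in the other calves) and the lowest sum of differentiated squamous markers (38948 against 74454 to 93431 CPM). The part of these tissue differences in its FKBP5, HSD11B2 and PMEPA1 levels was not tested.

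**Figure D5:**
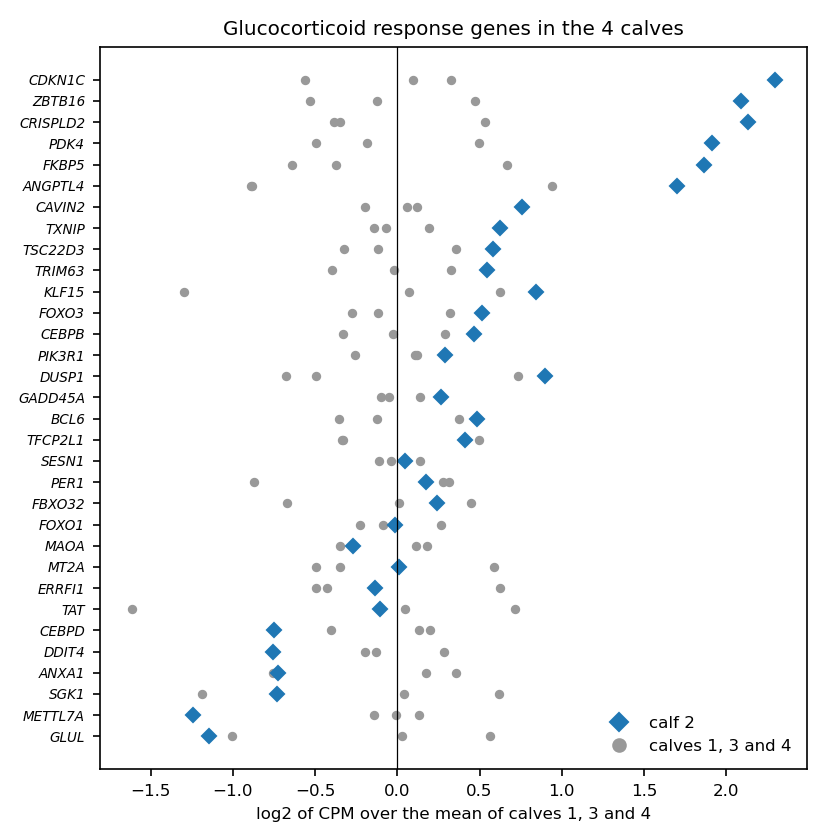
Level of 32 glucocorticoid response genes averaging 5 CPM or more over the libraries, in the 4 calves, as log2 of CPM over the mean of calves 1, 3 and 4. Calf 2 is the blue diamond, the other calves are grey points, and genes are sorted by calf 2 over the highest of the other calves. CDKN1C, ZBTB16, CRISPLD2, PDK4 and FKBP5 stand at the top, and genes such as GLUL and METTL7A lie below 0.

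Genes of the mineralocorticoid response, the pathway that HSD11B2 guards in salt-absorbing epithelia, were called in both directions. Of 13 tested besides FKBP5, 3 rose and 6 fell (69.2% called, median log2 change -0.88). The 3 subunits of the epithelial sodium channel SCNN1A, SCNN1B and SCNN1G were all lower in steers, whereas HSD11B2 was higher in steers. SCNN1A was at 85.1 ± 43.5 CPM in calves and 9.48 ± 9.41 CPM in steers (-3.16 ± 0.71, edgeR adjusted p = 0.0151). SCNN1B fell by 5.23 ± 0.52, and SCNN1G was at 30.6 ± 11.6 CPM in calves and 0.0433 ± 0.0444 CPM in steers, a mean below the level that 3 counts give in any library and a gene that passed the filter through the calves. Without steer 4, at 23.2 CPM the highest steer, SCNN1A changed by -4.11. Differentiated squamous markers were also lower in steers, as given above, and their part in the channel subunits' change was not tested. The deubiquitinase USP2 rose from 16.5 ± 4.4 to 54.9 ± 8.8 CPM (1.73 ± 0.24), although another locus covers 41.2% of the span counted for it. The channel KCNMA1, also abundant in smooth muscle, rose by 2.14 ± 0.52, and by 1.00 without a call (adjusted p = 0.186) when the smooth muscle mean was a covariate. The ubiquitin ligase NEDD4L rose by 0.72 ± 0.21. KCNMA1 lost its call without calf 1, calf 3, calf 4 or steer 3 (1.86 to 2.09), and NEDD4L without any 1 library other than calf 2 or steer 1 (0.61 to 0.78).

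No animal was uniformly high or low across the 8 genes. Among calves, calf 2 was highest for GREB1, HSD11B2, PMEPA1 and FKBP5 and lowest for HSD17B2 and SRD5A1. Calf 3 was the reverse for several of them, highest for HSD17B2, SRD5A1 and STS and lowest for HSD11B2 and PMEPA1. Among steers, steer 1 was highest for HSD17B2, STS and FKBP5, and steer 2 was lowest for GREB1, HSD17B2 and SRD5A1 and highest for HSD11B2.

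The genes with the most similar profile were sought by the root mean square difference of centred log2 CPM over the 8 libraries, among 10377 named genes of at least 5 CPM. For GREB1 they were MOXD1 at 0.71 and MGC157368 at 0.73, where the median over all candidates was 2.57. For HSD17B2 they were ADGRV1, an adhesion receptor, at 0.28 and ACADS, a short-chain acyl-CoA dehydrogenase, at 0.28. ADGRV1 rose by 2.94 ± 0.35 and ACADS by 2.53 ± 0.44, each close to HSD17B2.

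HSD11B2 was closest to the collagen chain COL8A2 (0.49) and the prolactin receptor PRLR (0.51), and PMEPA1 to the kinase TNIK (0.16) and the small heat shock protein CRYAB (0.22). PRLR rose from 15.6 ± 6.3 to 47.2 ± 6.0 CPM and TNIK from 10.9 ± 1.7 to 26.95 ± 1.25 CPM. Genes that were not called had like neighbours, namely GM2A (0.17) and GABARAPL1 (0.25) for HSD11B1, GMIP (0.10) and RGS12 (0.13) for SRD5A1, RNF214 (0.31) and SKP2 (0.32) for STS, and SLCO2A1 (0.44) and TNFRSF6B (0.55) for FKBP5. The closest of so many genes are near by selection, and the distances are a description of these libraries.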

How the data were processed

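Rumen RNA of 4 calves and 4 steers was sequenced from both ends. The submitters' processing notes name Trimmomatic 0.39, STAR 2.7.11a, featureCounts 2.0.2 and DESeq2 1.42.0. The deposited values are raw whole-number counts per gene name; per the file headers, the authors counted over whole transcript spans, introns included, without a strand option and without joining mates. Both mates therefore add to a count, reads of antisense neighbours cannot be told apart, and reads in more than 1 gene were dropped. Of counts from 1 to 10, 86.9% to 89% were even. Floors (3 counts) cover counting error only.

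CPM, filterByExpr, TMM scaling and the robust quasi-likelihood test were run in edgeR 4.0.16 (R 4.3.3), with Benjamini-Hochberg adjustment over 16326 genes. SE is the log2 change over the square root of F, and 95% intervals use its total degrees of freedom, prior and residual. Alternatives were other scalings, filters and dispersions, DESeq2 1.42.0, limma-voom 3.58.1, a replicate block, a smooth muscle covariate and libraries left out. The test was checked on simulated data. The p-values and intervals set the difference between the groups against the spread between animals, estimated with information shared across genes. They do not separate stage from castration.

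Members and lists were chosen with earlier results of these data known. Of 231 list symbols 223 matched the table, 3 of them through a synonym in the ARS-UCD2.0 table, and the rest are not analysed here. Named were the 8 genes, 5 receptors, the up to 3 called genes per list and direction farthest from 0 with at least 1 CPM, the most abundant gene of a list with no call, and the 2 nearest profiles, a few of which are not reported here. UGT1A1, SMAD6, HSD11B1L, SLC37A4, AKR1D1, CYP3A5, SERPINA6, SRD5A2, CYP19A1, STAR, CYP11A1, SULT1E1, SULT2A1, CYP17A1, CYP11B1, GPER1, TFF1 and the genes singled out in calf 2 were added after their values were seen. No sequence is printed, as none was used here.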

Additional observations from a re-analysis of the deposited data

How the results depend on the processing

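The counts of the 8 genes called (3 to 4) and of other pathway genes called (37 to 61, against 50) stayed within 1.5 times under all 20 alternatives. The count over all genes was 2752, and 1734 to 3257 with 1 library left out, lowest without calf 1; DESeq2 called 4080. Library size alone shifted the median log2 change of all genes by -0.11 and the share of calls that were higher from 45.7% to 34.9%, at 3 of the 8 genes called. HSD11B2 lost its call in 9 alternatives, 2 of which were upper-quartile scaling (adjusted p = 0.0544) and library size alone (0.108); the cause was not tested. With the replicate block 1831 genes were called, 39 of them other pathway genes, and the same number of the 8 genes (4) as without it. SULT1B1 lost its call only with this block (log2 change 2.35, edgeR adjusted p = 0.0583). The same-numbered animals correlated in their deviations at 0.20, 0.08, -0.10 and -0.27, and 1 of 4 calves matched its own number best. So few values cannot show whether the numbers pair animals.

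Among the 69 named genes tested under these alternatives, signs changed only for genes that were not called. Without calf 2 and steer 4 together, SRD5A1 was at -0.032, FKBP5 at 0.21, GMIP at -0.15, RGS12 at -0.11 and SLCO2A1 at 0.47. With 1 library left out, FKBP5 ranged from -0.72 to 0.37 (without calf 2), GMIP from -0.040 (without steer 4) to 0.35 and SLCO2A1 from -0.24 to 0.60 (without calf 2). SLCO2A1, at -0.03 in the main analysis, was also at 0.14 without steer 2, 0.03 without steer 3, 0.13 with limma-voom, 0.20 with the replicate block and 0.038 with the smooth muscle covariate. Of 42 named and called pathway genes, 28 kept their call in every alternative and 14 lost it in at least 1. Counts per library were 2 to 20 for GREB1 in calves, 1 of which lay below its floor, and 3 to 12 for ESR1, which was not tested.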
